A study of Homo sapiens with 6 samples.

Results

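The 9 genes described here encode inflammatory chemokines. They were chosen by symbol, with earlier results of the same table already known, and the value read for each is its mean normalized count. All 9 genes had a row among the 19792 genes of the authors' table. All 9 reached the minimum, a mean normalized count of 10, as did 13548 of the 19792 genes. The lowest mean normalized count of the 9 was that of CCL2 at 98.1, so no member lay near the minimum on either side. RNA-seq was performed on BT-549 cells, a human triple-negative breast cancer (TNBC) line of mesenchymal character, that carried a tetracycline-inducible WDR5 shRNA vector and had been selected with puromycin. In 3 cultures the vehicle was 0.1% DMSO, and 3 were treated with 500 ng/ml doxycycline (DOX), which switches the shRNA on. All 6 cultures carried the same single WDR5 shRNA, and a line with a control shRNA was not analysed here. The usable value of each gene is the authors' mean over all 6 libraries, vehicle and DOX together, without an error. Levels in vehicle and in DOX were therefore not separated, no difference between the treatments is given, and a gene that differed between them is described by a mean that lies between its levels.

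Chemokines are small secreted proteins that direct the migration of leukocytes through G protein-coupled receptors. CXC chemokines have 1 residue between their first cysteines, and those with glutamate, leucine and arginine (the ELR motif) just before these cysteines bind CXCR2 on neutrophils, CXCL6 and CXCL8 also binding CXCR1. In CC chemokines the first cysteines are adjacent. CCL2 attracts monocytes through CCR2, CCL5 attracts T cells and monocytes, and CCL20 is the ligand of CCR6. Many tumor cells secrete these proteins, and NF-κB, the factor examined in the study, is a well-known activator of their genes.

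The coding sequences of the cysteine motifs show which proteins belong to which class, and are given from the GENCODE 44 canonical transcripts as 30 bases each. In the CXC members the capitals mark the codons of the ELR motif.
CXCL1: gccactGAACTGCGCtgccagtgcttgcag
CXCL2: gccactGAACTGCGCtgccagtgcttgcag
CXCL3: gtcactGAACTGCGCtgccagtgcttgcag
CXCL5: ttgagaGAGCTGCGTtgcgtttgtttacag
CXCL6: ctgacaGAGCTGCGTtgcacttgtttacgc
CXCL8: gctaaaGAACTTAGAtgtcagtgcataaag

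All 6 CXC members held the ELR motif. The stretches of CXCL1 and CXCL2 were identical, and CXCL5 and CXCL6 used the same 3 codons. In the CC members the capitals mark the codons of the adjacent cysteines.
CCL2: ccagtcaccTGCTGTtataacttcaccaat
CCL5: accacacccTGCTGCtttgcctacattgcc
CCL20: aactttgacTGCTGTcttggatacacagac

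The mean normalized counts of the ELR chemokines among the members ran from 111 to 10865. Without division by length, CXCL5, a neutrophil attractant, had the highest mean normalized count of the 9 genes at 10865, which was rank 379 of all genes. CXCL1, the first described of the GRO chemokines, was listed at 8729.9 and CXCL8 (interleukin-8) at 6406. These 3 genes were in the top 5% of all genes of the table, at percentiles of 98.1, 97.4 and 96.0. CXCL2 and CXCL3, the closest relatives of CXCL1, were listed at 1272 and 544. CXCL6, the closest relative of CXCL5, had a mean normalized count of 111 and stood at the 46.1 percentile. Among the CC members, CCL5 was the highest with 2214, at the 85.1 percentile. CCL20 and CCL2 were listed at 106 and 98.1, at percentiles of 45.8 and 45.2.

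The 9 genes thus fell into 5 with mean normalized counts from 1272 upward, CXCL3 in between, and 3 from 98.1 to 111. Their median of 1272 compares with 187 over all 19792 genes and with 677 over the 13548 genes at the minimum of 10, and 5 members were above the latter. Together they held 0.114% of the summed mean normalized counts. The spread between cultures is not known from these values, so no pair of levels was tested.

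**Figure D1:**
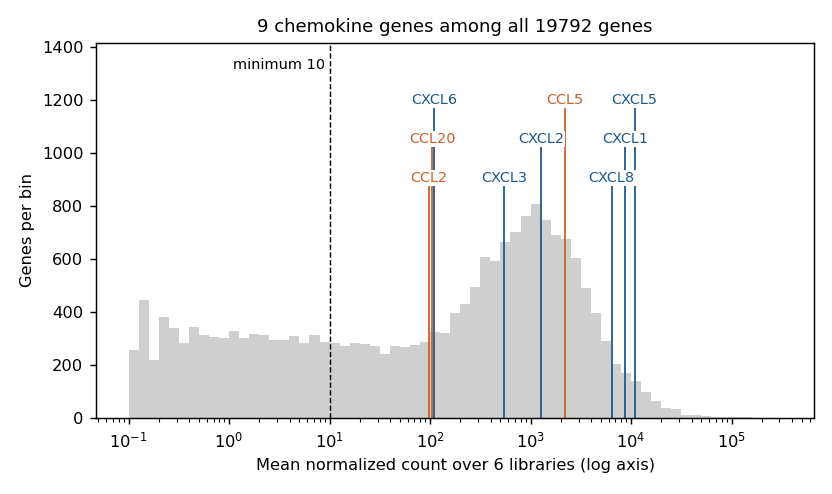
Histogram of the mean normalized counts of all 19792 genes (log axis, number of genes per bin), with a vertical line at each of the 9 chemokine genes and a dashed line at the minimum of 10. CXCL5, CXCL1 and CXCL8 lie in the right tail, and CCL2, CCL20 and CXCL6 lie close together near 100.

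Transcripts of different length give different numbers of reads at the same abundance, so levels were compared between genes per kilobase of the canonical transcript. CXCL1, with a transcript of 1174 bases, then had the highest level at 7436 per kb. CXCL5, whose transcript of 2436 bases is the longest of the 9, followed with 4460.3 per kb, and CXCL8 with 3901 per kb. The level per kb of CXCL1 was 1.67 times that of CXCL5, and that of CXCL5 was 1.14 times that of CXCL8. Per coding length, as without division by length, CXCL5 was first and CXCL1 second, so which of them leads depends on the length used. Of the members' summed level per kb, CXCL1 held 38.2% and CXCL5 held 22.9%, and all 3 genes encode attractants of neutrophils.

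CCL5 had 1704 per kb, CXCL2 had 1140.4 and CXCL3 had 506. The step from CXCL3 down to the next gene was the largest in the order, with a ratio of 3.83. CCL2, CCL20 and CXCL6 had levels of 132, 127 and 71.9 per kb, and CCL2 and CCL20 differed by a ratio of 1.05. Without division by length, CXCL6 was the highest of these 3 genes, so their order depends on the transcript length. The highest level per kb was 103 times the lowest. The ELR members held 89.9% of the members' summed level per kb, and the CC members held 10.1%. Set against all genes with a length, the median of the members was 1140.4 per kb and the median of the genes was 79.8.

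**Figure D2:**
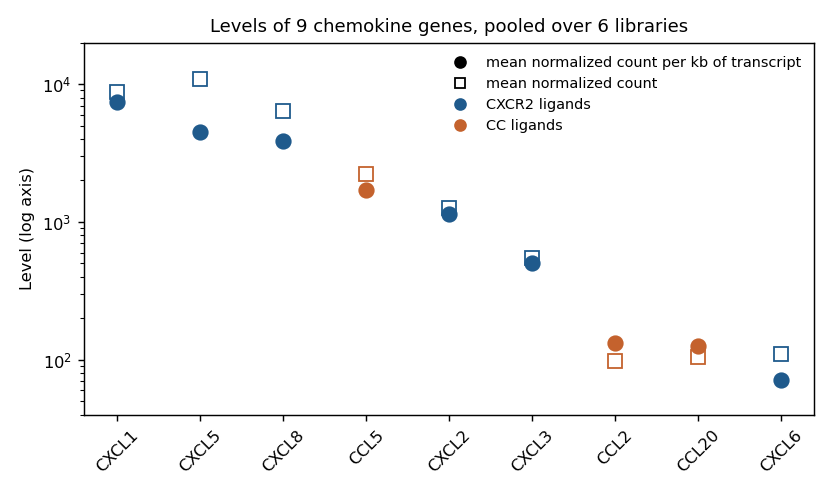
Level of each chemokine gene, in order of the level per kb of transcript (filled circles) with the mean normalized count beside it (open squares), on a log axis; blue genes are CXCR2 ligands and orange genes are CC ligands. Each symbol is the authors' single mean over 6 libraries and has no error bar. CXCL1 leads per kb at 7436 and CXCL5 leads without division by length at 10865.

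The reads of near relatives can be hard to assign. Over their coding sequences, CXCL1 and CXCL2 were 93.5% identical, CXCL2 and CXCL3 94.4%, CXCL1 and CXCL3 90.7%, and CXCL5 and CXCL6 87.4%. For every stretch of 50 bases along each canonical transcript, exact copies were sought in the transcripts of all other genes. Such copies were found for 10.1% of the stretches of CXCL2, 5.33% of those of CXCL1 and 5.26% of those of CXCL3, all of them within this trio. At 75 bases the shares were 2.50%, 0.273% and 2.30%, and at 100 bases no stretch of the 3 genes had a copy elsewhere. The read length and the counter's treatment of such reads are not given in the sources used here, so the levels of CXCL2 and CXCL3, the lower of the trio, are the less certain ones.

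CXCL5 and CXCL6, although related, shared no stretch of 50 bases with each other. Copies were found for 1.17% of the stretches of CXCL5, in GLYR1, and for none of CXCL6, CXCL8, CCL2 or CCL20. In CCL5, 17.0% of the stretches of 50 bases and 7.92% of those of 100 bases occurred in transcripts of other genes, 361 and 12 of them respectively. The other long coding transcript of CCL5 had 18.2% and 8.50% at these lengths. The level of CCL5 is thus uncertain by the share of its reads that were lost or gained there, which was not tested.

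The 6 CXC genes lie together on chromosome 4 of GRCh38. CXCL8 (73740519 to 73743716), CXCL6 (73836640 to 73849064) and CXCL1 (73869393 to 73871308) are on the plus strand, whereas CXCL5 (73995642 to 73998677), CXCL3 (74036589 to 74038807) and CXCL2 (74097040 to 74099196) are on the minus strand. From CXCL8 to CXCL2 the region is 359 kb long and holds 10 protein-coding genes of GENCODE 44, of which 9 are chemokine genes. The other 3 chemokine genes of this region are those of platelets. PF4 (platelet factor 4) had a mean normalized count of 2.19, PPBP (pro-platelet basic protein) had 0.248, and PF4V1 had no row. High and low genes were thus interspersed along the cluster. CXCL6 (71.9 per kb) lies between CXCL8 (3901) and CXCL1 (7436), and PPBP lies next to CXCL5. The CC members are elsewhere, with CCL2 (34255274 to 34257208) and CCL5 (35871491 to 35880793) on chromosome 17 and CCL20 (227805739 to 227817564) on chromosome 2.

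**Figure D3:**
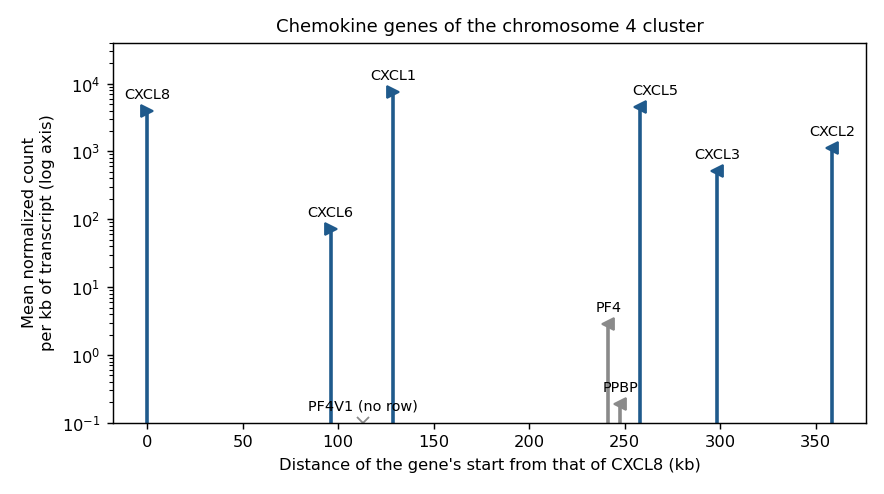
Level per kb of transcript (log axis) of the chemokine genes of the chromosome 4 cluster against the distance of each gene's start from that of CXCL8 in kb; triangles point in the direction of transcription, blue marks the 6 members, grey the platelet genes, and the cross marks PF4V1, which has no row. CXCL6 at 71.9 per kb stands between CXCL8 and CXCL1, and PF4 and PPBP stand beside CXCL5.

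The 9 genes held nearly all of the chemokine ligand mRNA signal that the table shows. They and the list of other ligands were chosen with earlier results of the same table known. Of 39 other chemokine ligand genes, 24 had no row, 12 were below a mean normalized count of 10, and 3 were at or above it. These were CXCL16 (78.0), a membrane-bound ligand of CXCR6, and the interferon-inducible CXCR3 ligands CXCL10 (66.9) and CXCL11 (10.9). The median of the 15 listed genes was 1.13, and 13548 of all 19792 genes of the table were at 10 or more. Over all 24 chemokine ligands with a row, the 9 genes held 99.4% of the summed level per kb. CXCL9, the third interferon-inducible ligand of CXCR3, was listed at 0.267, CXCL12, the ligand of CXCR4, at 0.934, and CCL7, a neighbour of CCL2 that also attracts monocytes, at 3.86. CCL3 and CCL4, macrophage inflammatory proteins, had no row.

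Most receptors of these ligands had no row or a mean normalized count below 1, with CCR1 as the exception. CXCR2 had no row, and CXCR1 was listed at 0.124, the smallest mean normalized count in the table. CCR2, the receptor of CCL2, was listed at 0.226, and CCR6, the receptor of CCL20, at 0.785. CCR1, which binds CCL5, had a mean normalized count of 58.6, whereas CCR3 had no row. Of 18 signaling chemokine receptors, 10 had a row and 3 were at 10 or more, namely CCR1, CXCR4 (12.3) and CCR10 (12.3). Among all 19792 genes, 13548 were at 10 or more. Atypical receptors take up chemokines without G protein signaling. ACKR3, which binds CXCL11 and CXCL12, was listed at 247, ACKR2, a scavenger of inflammatory CC chemokines, at 1.12, and ACKR1 had no row. In RNA pooled over both treatments, the CXCR2 ligands among the members were thus listed at 111 to 10865. Their receptors were listed at 0.124 or not at all.

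**Figure D4:**
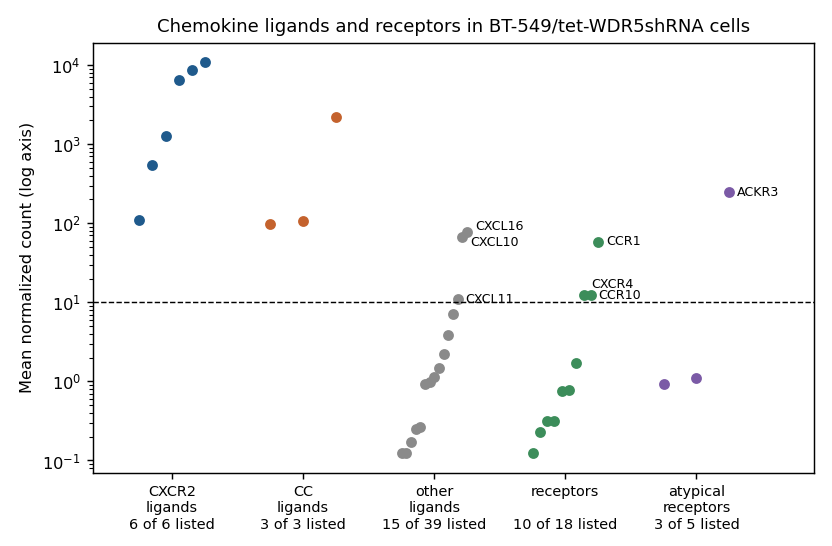
Mean normalized count (log axis) of every listed gene, with a dashed line at 10. The groups are the CXCR2 ligands and the CC ligands among the 9 members, all other chemokine ligands, the signaling receptors and the atypical receptors. Under the axis is the number listed of all genes in the group. All 9 members lie above the line, against 3 of 15 other ligands, 3 of 10 receptors and ACKR3 alone of the atypical receptors.

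Regions around the RefSeq starts of the members were examined for motifs of factors that are known to act on chemokine genes. RefSeq windows of 300 bases around the start (GRCh38.p14) were matched for 7 of the 9 genes, CCL2 and CCL5 being the others. The NF-κB consensus was GGGRNWYYCC, with R for A or G, W for A or T, Y for C or T and N for any base. On both strands, with overlapping matches counted as 1, this consensus was found in 6 of these 7 windows, against 5.91% of all 35116 windows. Of these 6 matches, 5 lie in CXC genes. Their surroundings are alike among CXCL1, CXCL2 and CXCL3 and between CXCL5 and CXCL6, so the matches are not independent. The 6 matches are shown with 9 bases on each side, the match in capitals, since the same letters recur in 5 genes. They are written in the direction of transcription.
CXCL1: tggaactccGGGAATTTCCCtggcccggg
CXCL2: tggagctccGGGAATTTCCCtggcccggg
CXCL3: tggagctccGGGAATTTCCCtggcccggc
CXCL5: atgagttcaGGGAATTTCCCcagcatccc
CXCL6: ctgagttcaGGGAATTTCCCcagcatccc
CCL20: gatcaatggGGAAAACCCCatgtggcaa

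The printed stretches lie at chr4:73869305-73869333 (plus strand) for CXCL1, chr4:74099254-74099282 (minus) for CXCL2, chr4:74038749-74038777 (minus) for CXCL3, chr4:73998749-73998777 (minus) for CXCL5, chr4:73836579-73836607 (plus) for CXCL6 and chr2:227813754-227813781 (plus) for CCL20. Counted from the RefSeq start, with -1 the base before it, the match began at -79 in CXCL1, CXCL3 and CCL20, at -78 in CXCL2, at -91 in CXCL5 and at -90 in CXCL6. The RefSeq starts differ from the GENCODE gene bounds given above, and the stretches of CXCL3 and CCL20 lie inside those bounds. The capitals were the same 11 bases in all 5 CXC genes, where the consensus matched on both strands. CXCL6 and CXCL5, which carry this match in like surroundings, had levels per kb of 71.9 and 4460.3. Because 6 of the 7 genes with a window held a match, genes with and without it could not be compared by level. A relation of the match to level was not tested.

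CXCL8 had no exact match to the NF-κB consensus in its window, which says only that these letters are not there. Looser forms of the consensus were not searched. Of the 7 members with a window, it alone held the AP-1 motif TGACTCA, searched on both strands, which 4.95% of all windows hold. The site is shown with the motif in capitals, at chr4:73740423-73740447 on the plus strand, beginning at -137.
CXCL8: gaagtgtgaTGACTCAggtttgccc

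The letters TATAAA were found in the windows of CXCL8 (beginning at -31) and CCL20 (at -29), each on the strand of the gene. They were found in 11.5% of all windows, a share that counts either strand and any position in the window. All 14 listed factors of the NF-κB, AP-1 and C/EBP groups were at 10 or more, as were 13548 of the 19792 genes. JUN was the highest with a mean normalized count of 7259, and the NF-κB subunit genes RELA and NFKB1 had 2745 and 2163. REL, another NF-κB subunit gene, and FOS were lower, at 371 and 263, below the median of 677 for genes at the minimum. A match to a motif is not a bound site, and binding was not analysed here.

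Of 10 genes for cytokines that classically induce these chemokines and for their receptors, 9 had a row and 7 were at 10 or more. Among all 19792 genes, 13548 were at 10 or more. TNF was listed at 1.22, IL1A at 3.07 and IL1B at 11.1, while IL17A had no row. The TNF receptor TNFRSF1A had a mean normalized count of 7403, the interleukin-1 receptor chains IL1R1 and IL1RAP had 3398 and 5153, and the interleukin-17 receptor chains IL17RA and IL17RC had 542 and 528.

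Chemokine mRNAs are known for AU-rich elements in their 3′ UTRs, through which ZFP36 (tristetraprolin) and related proteins shorten their life. The pentamer ATTTA, written as DNA, was counted in the 3′ UTR of each canonical transcript. CXCL2 held 10 pentamers in 719 bases, or 13.9 per kb, and CXCL3 held 7 in 676 bases, or 10.4 per kb. CXCL1 had 7.74 per kb, CXCL8 had 7.17 and CCL20 had 6.30. These 5 genes were at or above the 95 percentile of the 12052 protein-coding genes at the minimum level with a 3′ UTR of at least 50 bases, whose median was 1.80 per kb. CXCL1, CXCL2 and CXCL3 are near relatives by coding sequence, so they need not be independent cases. CXCL5, with 11 pentamers in the longest 3′ UTR of the 9 (1998 bases), had 5.51 per kb and CXCL6 had 5.35. CCL2 had 1 pentamer in 379 bases, or 2.64 per kb, at the 65.2 percentile, and CCL5 had none in 782 bases. The canonical CCL5 transcript encodes 154 residues, and its other long coding transcript, with a shorter coding part, was not counted.

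The longer form TTATTTA, which contains the pentamer, was present in 6 members and in 34.9% of all these genes. It occurred 3 times or more in CXCL8 and in the near relatives CXCL1, CXCL2 and CXCL3, against 7.14% of all genes. It was not found in CXCL5, CXCL6 or CCL5. The listed genes for proteins that act on such elements were all at 10 or more, as were 13548 of the 19792 genes. Among them ZFP36L1 was at 13755, the stabilizing protein gene ELAVL1 (HuR) at 3206 and ZFP36, the lowest of the list, at 815. CXCL2 and CXCL3 had the most pentamers per kb and stood at ranks 5 and 6 by level per kb. A relation between pentamers and level was not tested. Decay of these mRNAs was not measured.

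**Figure D5:**
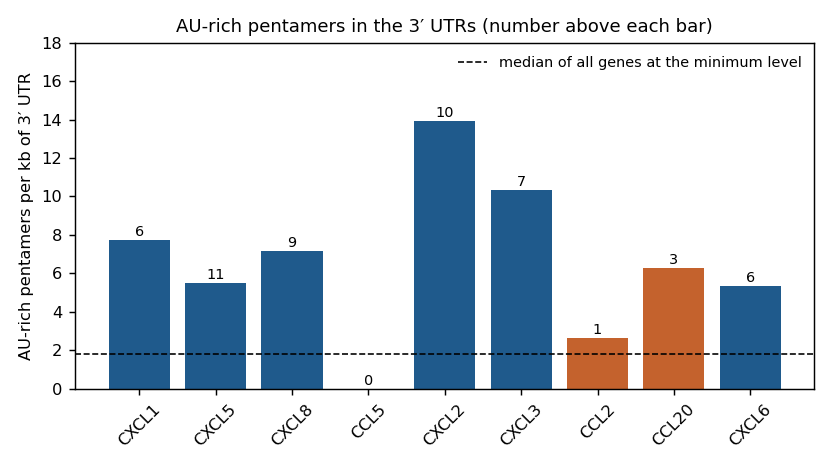
AU-rich pentamers (ATTTA) per kb of 3′ UTR for each chemokine gene, in order of the level per kb, with the number of pentamers above each bar and a dashed line at 1.80, the median of 12052 genes. CXCL2 is the highest at 13.9 per kb, and CCL5 has none.

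The library set was checked against markers as far as a pooled mean allows. For the counts below, 13548 of all 19792 genes were at 10 or more. The mesenchymal genes VIM (47782), FN1 (30461) and SPARC (19657) were high, and 5 of 5 genes of this list were at 10 or more. Of 6 epithelial genes, 3 were at 10 or more, namely KRT18 (435), CDH1 (59.6) and KRT8 (57.3), and EPCAM was listed at 1.30. ESR1 (0.790) and PGR (0.801) were near 0, and ERBB2 was at 1221. Of 5 leukocyte markers 1 was at 10 or more (PTPRC, 44.7), of 5 myeloid markers 1 (CD14, 24.0), and of 4 endothelial markers none, PECAM1 being the highest at 2.86. The part of other cells in the chemokine levels was not tested. All 5 listed genes of COMPASS, the histone methyltransferase complex that WDR5 belongs to, were at 10 or more, ASH2L being the highest at 3031. WDR5, the targeted gene, had a pooled mean normalized count of 1143, which as a mean of both treatments does not check the labels.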

How the data were processed

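RNA-seq libraries (TruSeq stranded mRNA) of 3 vehicle and 3 DOX cultures were analysed. Per the labels and the methods, the authors aligned reads to GRCh38 with STAR and normalized the counts with DESeq2. The deposited signal is the mean normalized count of each gene over all 6 libraries, which is not divided by gene length. The counter, read length and any filter are not given in the sources used here, and the depth of each library is unknown. The 5 other columns of the deposited table hold the authors' own comparison of DOX with vehicle (log2 fold change, its standard error, the statistic and both p-values) and were not used, so no test was made.

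The 9 genes and all gene lists were chosen with earlier results of these data known. Every member is described. From the other lists the rule names the genes at the highest level, with the number at 10 or more. Further genes, such as the receptors of the members, were named for their role after their values were seen. A receptor gene of the list is not reported here. Positions, lengths and sequences came from GENCODE 44 (GRCh38) by gene symbol, using the Ensembl canonical transcript. Of 19792 symbols, 17729 matched directly, 592 through a synonym and 1471 did not. Percentiles are the percent of genes at or below a value. Windows around the start came from RefSeq (GRCh38.p14), whose starts can differ from the GENCODE bounds. Shared stretches were exact matches of 50, 75 or 100 bases in any other gene's GENCODE transcript, and coding identity came from global alignment. The functions for shared stretches, percentiles and the reverse strand were tested on simulated data, and the other steps were not. Python 3.11.15, pandas 2.3.3, numpy 2.4.6, biopython 1.88 and matplotlib 3.10.9 were used.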

Additional observations from a re-analysis of the deposited data

How the results depend on the processing

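All 9 genes stayed in at minimum mean normalized counts of 1 and 50, and 8 did at 100, where CCL2 fell below. The median percentile of the members, 76.4 over all genes, was 65.5 among genes at 10 or more and 90.8 by level per kb. In the order by level per kb, 5 of 9 genes kept their rank when the coding length replaced the transcript length and 5 when levels were not divided by length. The places of CXCL1 and CXCL5 and those of CCL2, CCL20 and CXCL6 depended on the length. The highest share of a single gene was 38.2% per kb (CXCL1) and 35.8% without division (CXCL5). The other long coding transcript of CCL5, chosen after seeing the data, changed no rank and gave 1819 per kb. No paired analysis was possible because the table holds no values of single libraries, and for the same reason the count tests, the filter on counts and leaving out a culture were not run. Errors of the levels, and any level in vehicle or DOX alone, are not known here.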

Other observations

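Between CCL2 and CCL5 on chromosome 17 the GENCODE 44 annotation has 32 protein-coding genes over 1625 kb, of which 7 encode chemokines. Beside CCL2 (mean normalized count 98.1) and CCL5 (2214), CCL7 had 3.86, whereas CCL11, CCL8, CCL13 and CCL1 had no row. The chemokine genes nearest to CCL2 were thus lower than CCL2 or not listed. The genes between the CCL2 group and CCL5 included AP2B1 (8834), SLFN5 (4077) and TAF15 (3378), named after their values were seen, so the region held genes of high level that are no chemokines.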
